A study of Homo sapiens with 4 samples.

Results

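The gene loci of 4 classical mapped human replication origins, LMNB2, MYC, TOP1 and HBB, were examined for binding of BRPF3. A peak was assigned to a locus when it overlapped the gene body, extended by 10 kb on each side, by at least 1 bp. By this rule 13 of the 38123 peaks deposited for the series lay at these loci, 5 of 13160 in asynchronous cells, 4 of 11532 in mimosine cells and 4 of 13431 in HU cells. They fell at 3 of the 4 genes in each list, and HBB had none.

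Chromatin immunoprecipitation with sequencing (ChIP-seq) was done on RKO, an established human colon carcinoma line, with a homemade rabbit antibody to BRPF3. A description field names other BRPF proteins, and the titles and the antibody field were followed. The asynchronous cells were untreated and grew normally, and the mimosine cells were held in 0.5 mM mimosine for 22 h. The HU cells had the same mimosine block, a release of 3 h and then 3 mM hydroxyurea (HU) for 1 h 30 min. Rabbit IgG from HU cells was the control for all 3 lists, so only the HU list had a control from its own condition. Each condition had 1 BRPF3 library, so the differences between lists given here describe these libraries and have no error and no p-value.

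A replication origin is a place where the strands of DNA are first opened and copied. In the first gap phase it is licensed by loading of the MCM helicase, and it fires when kinases and helicase cofactors act on it in S phase. BRPF3 is a scaffold subunit of histone acetyltransferase complexes and works with HBO1 (KAT7), an enzyme first described through its binding to the origin recognition complex. Mimosine holds cells around the entry into S phase, and HU depletes nucleotides and stalls forks. The mapped origin of LMNB2, the gene of lamin B2, lies just past the downstream end of the gene, towards the neighbouring gene TIMM13. The origin of MYC, which encodes a growth-promoting transcription factor, lies upstream of and around its promoters. That of TOP1, the gene of DNA topoisomerase I, is at the promoter, and that of HBB, the gene of adult beta-globin, is upstream of the gene towards HBD. The coordinates of the origins were in no source used here. The gene edge beside each origin therefore stood in for it, which was the downstream end for LMNB2 and the start site for the other genes.

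Positions are in hg19 and are counted from 1. LMNB2 was taken as chr19:2428160-2456990 on the minus strand, TOP1 as chr20:39657460-39753130 on the plus strand and HBB as chr11:5246690-5248300 on the minus strand. The windows with their flanks measured 48.8 kb for LMNB2, 25.4 kb for MYC, 116 kb for TOP1 and 21.6 kb for HBB. The nearest listed genes in the reference table were LINC01775 and TIMM13 for LMNB2, CASC11 and PVT1 for MYC, LOC100128988 and LOC124904903 for TOP1, and HBD and OR51V1 for HBB, with the upstream neighbour first.

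The promoters of LMNB2 and TOP1 are shown because a BRPF3 peak covered their start sites in every list, and that of TIMM13 because it is the gene on the far side of the LMNB2 origin. They are RefSeq sequences of build GRCh38.p14, from 250 bases before to 50 bases after the annotated start, written along the gene, with each CG dinucleotide in capitals.
LMNB2: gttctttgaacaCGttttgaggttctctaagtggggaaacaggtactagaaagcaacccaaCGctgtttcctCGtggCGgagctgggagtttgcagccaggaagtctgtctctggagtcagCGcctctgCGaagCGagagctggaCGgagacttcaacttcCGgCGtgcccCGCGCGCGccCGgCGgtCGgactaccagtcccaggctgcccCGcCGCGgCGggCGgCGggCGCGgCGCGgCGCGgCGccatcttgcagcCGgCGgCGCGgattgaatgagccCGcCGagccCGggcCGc
TIMM13: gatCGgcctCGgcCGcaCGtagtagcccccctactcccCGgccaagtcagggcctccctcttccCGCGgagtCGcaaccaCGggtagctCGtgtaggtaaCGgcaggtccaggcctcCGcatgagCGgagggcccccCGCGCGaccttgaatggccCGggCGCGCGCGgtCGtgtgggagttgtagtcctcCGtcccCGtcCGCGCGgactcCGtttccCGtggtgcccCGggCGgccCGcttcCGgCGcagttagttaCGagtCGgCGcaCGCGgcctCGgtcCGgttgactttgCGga
TOP1: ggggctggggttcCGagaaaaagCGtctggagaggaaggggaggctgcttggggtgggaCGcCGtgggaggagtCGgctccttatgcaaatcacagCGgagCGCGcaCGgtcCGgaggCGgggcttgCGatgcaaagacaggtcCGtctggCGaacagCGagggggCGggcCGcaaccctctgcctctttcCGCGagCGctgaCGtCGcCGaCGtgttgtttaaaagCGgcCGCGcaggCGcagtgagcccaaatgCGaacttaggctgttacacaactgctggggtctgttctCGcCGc
The LMNB2 promoter held 38 CG dinucleotides, more than 90.1% of the 35116 promoters of the table. The TIMM13 promoter held 42, more than 94.2% of them, and that of TOP1 held 31, more than 79.3%. The median promoter held 14. Their GC contents were 67.7%, 71.0% and 64.7%. The GC box GGGCGG, searched on both strands, occurred 1 time in each of these promoters and in 45.0% of all promoters. The CCAAT box, searched as CCAAT on both strands, was in none of them and in 34.6% of all promoters. A match is only a stretch of letters and does not show that a factor binds. MYC and HBB had no entry in the table, and the positions of these GRCh38 sequences were not carried over to the hg19 peaks.

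LMNB2 carried BRPF3 peaks at both of its ends in all 3 lists, with no peak in the gene body between them. Among 1208 adjacent tiles of chromosome 19 as long as the LMNB2 window, 46.6% held a peak in asynchronous cells, 40.1% under mimosine and 46.9% in HU cells, and 39.9% held a peak in all 3. Presence of a peak in the LMNB2 window was therefore common for this chromosome. How often peaks lie at gene starts or ends over all genes was not analysed here.

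At the downstream end of LMNB2, the side of its mapped origin, the asynchronous peak spanned chr19:2425519-2428443. It reached 283 bp into the gene and extended 2641 bp past its end. The mimosine peak, chr19:2426115-2427701, began 459 bp past the end and stopped at 2045 bp. The HU peak, chr19:2425487-2428067, began 93 bp past the end and stopped at 2673 bp. All 3 peaks thus lay mainly or wholly in the stretch beyond the gene, and only the asynchronous peak touched the gene end itself. TIMM13 is the next gene on that side, and whether these peaks lie over its start or body was not determined. Their centres were 1179 bp, 1252 bp and 1383 bp past the end in asynchronous, mimosine and HU cells.

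At the LMNB2 start site the peaks were chr19:2454807-2457798 in the asynchronous list, chr19:2455610-2457569 under mimosine and chr19:2455142-2458215 under HU. They contained the start site in each list. The stretch upstream of the start measured 808 bp, 579 bp and 1225 bp, and the stretch inside the gene ended 2183 bp, 1380 bp and 1848 bp past the start. The 2 sites of LMNB2 were 29.3 to 29.9 kb apart between peak centres. The stretch without a called peak between them was 26.4 kb in asynchronous, 27.9 kb in mimosine and 27.1 kb in HU cells. The median spacing of neighbouring peaks on chromosome 19 was 27.6 kb, 34.9 kb and 27.1 kb, so the stretch was close to it in asynchronous and HU cells and shorter in mimosine cells.

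The peak on the origin side of LMNB2 was the narrower of the pair and had the higher score in each list. The score is the authors' own value, by its form the negative base-10 logarithm of the p-value multiplied by 10, and it ranks peaks within 1 list only. In asynchronous cells the downstream peak was 2925 bp wide with a score of 798, and the start-site peak was 2992 bp wide with a score of 701. In mimosine cells the widths were 1587 bp and 1960 bp and the scores 602 and 286. In HU cells the widths were 2581 bp and 3074 bp and the scores 903 and 518. The pair was thus nearly even in width and score in asynchronous cells and further apart in the other lists.

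As ranks, the downstream peak scored above 61.4% of the asynchronous, 71.5% of the mimosine and 65.7% of the HU list. For the start-site peak these values were 57.3%, 51.1% and 49.1%. Wider peaks had higher scores in these lists, as the plot of width and score shows, so each peak was also set beside peaks of its list whose width was within 10% of its own, a comparison chosen after the values were seen. The downstream peak scored above 56.5% of 2108 asynchronous peaks, 96.2% of 1346 mimosine peaks and 88.4% of 1912 HU peaks of like width. The start-site peak scored above 45.0% of 2101, 40.7% of 1597 and 36.8% of 2114. The downstream peak of mimosine cells was thus among the highest scoring for its width, and the start-site peak was below the middle in every list.

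A further LMNB2 peak was called in asynchronous cells only, at chr19:2462732-2463362. Its near edge was 5742 bp upstream of the start site. With a width of 631 bp and a score of 65 it scored above 5.84% of its list, so it lay close to the lowest score of 50 in that list. Just outside the window, the next peak upstream of LMNB2 was 17.3 kb from the gene in asynchronous, 18.5 kb in mimosine and 17.5 kb in HU cells, on the side of GADD45B, a stress-response gene and the next protein-coding gene of the table.

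**Figure D1:**
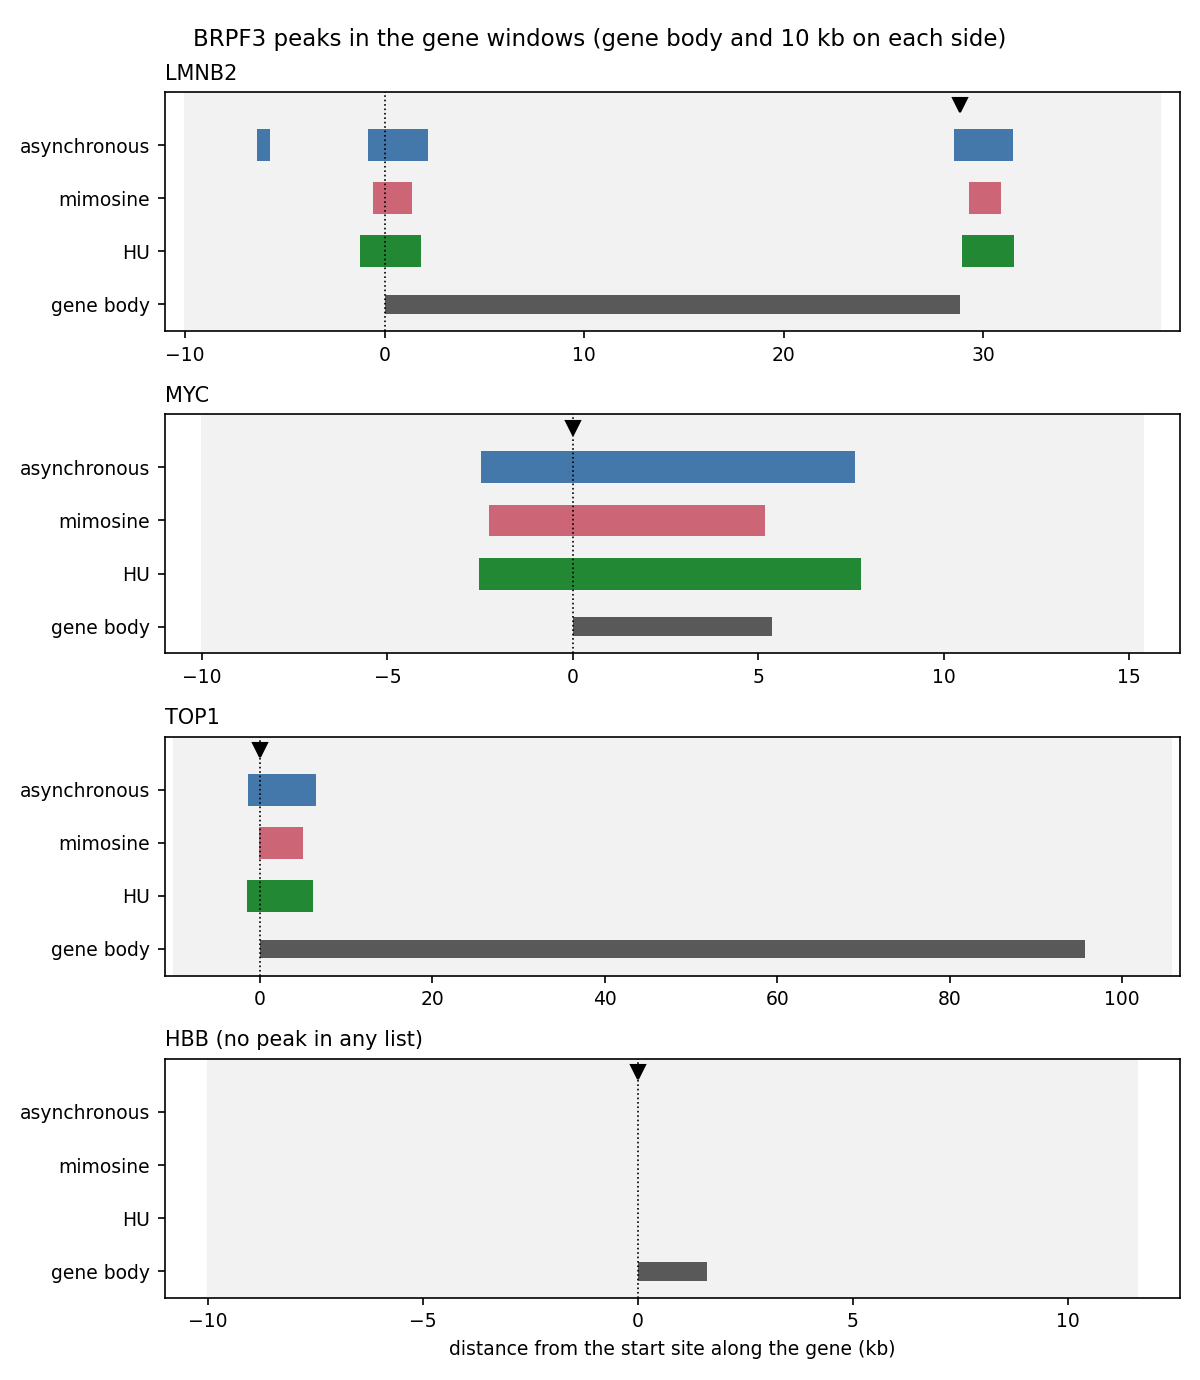
BRPF3 peaks (coloured bars, 1 row per list) in the 4 gene windows, by distance from the start site along the gene in kb, with the gene as a dark bar, the window in grey, the start site as a dotted line and the gene edge beside the mapped origin as a triangle. LMNB2 has peaks at both ends, MYC is covered almost from end to end, TOP1 has a peak at its start only, and HBB has none.

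MYC, taken as chr8:128748310-128753680 on the plus strand, lay under a single broad BRPF3 peak in each list. Of 5758 tiles of chromosome 8 as long as its window, 7.80% held a peak in asynchronous cells, 6.50% under mimosine and 8.18% in HU cells, and 6.48% in all 3. These shares are lower than those for LMNB2, but the tiles are also shorter, 25.4 kb against 48.8 kb. The tiles are not restricted to genes, and a background of gene starts was not analysed here. The asynchronous peak, chr8:128745838-128755929, was 10092 bp wide. The mimosine peak, chr8:128746039-128753485, was 7447 bp wide, and the HU peak, chr8:128745789-128756074, was 10286 bp wide.

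The peaks covered the start site of MYC, a stretch just upstream of it, on the side of its origin, and all or most of the gene. Whether they covered the whole origin was not tested. Upstream of the start site they extended 2472 bp in asynchronous, 2271 bp in mimosine and 2521 bp in HU cells. The asynchronous and HU peaks covered 100% of the gene and ran 2249 bp and 2394 bp past its end, while the mimosine peak covered 96.4% and stopped 195 bp short of it. The MYC model of the reference table is 2147 bp longer than the interval used here. If all of that difference lay upstream, the start site would still fall inside the peak of each list.

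By width the MYC peak stood near the top of its lists. It was wider than 99.2% of the asynchronous list, 99.2% of the mimosine list and 98.9% of the HU list. The wider peaks on chromosome 8 numbered 5 of 458 in the asynchronous list, 7 of 401 under mimosine and 11 of 480 under HU. Its score was exactly 3100 in each list, a value shared by 903 asynchronous, 306 mimosine and 906 HU peaks, and it does not order the peaks that carry it. Of peaks within 10% of its width, 79.7% of 74 asynchronous peaks, 55.4% of 74 mimosine peaks and 70.7% of 92 HU peaks scored 3100 or more.

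The mimosine peak of MYC was shorter almost wholly on the side of the gene end. Against the asynchronous peak its upstream edge was drawn in by 201 bp and its downstream edge by 2444 bp. Against the HU peak these values were 250 bp and 2589 bp. The difference between both edges, 2243 bp against asynchronous cells, exceeded that of 99.3% of the 8653 regions with exactly 1 peak in each list. Among the 98 regions whose asynchronous peak was within 25% of the MYC width, it exceeded 80.6%, so part of that rank goes with the width of the peak. The HU and asynchronous peaks of MYC shared 98.1% of their joint length.

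Apart from the MYC peak itself, no peak was called within about 392 kb upstream of the gene in any list. The next peak lay 402 kb upstream of the gene in asynchronous, 393 kb in mimosine and 392 kb in HU cells. Downstream, on the side of PVT1, a long non-coding RNA gene, the next peak began 51.4 kb past MYC in asynchronous, 51.8 kb in mimosine and 51.4 kb in HU cells. That peak was also broad, 10366 bp, 8254 bp and 11348 bp wide, with scores of 3100, 2857 and 3100.

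TOP1 carried 1 BRPF3 peak, which covered its start site and the first part of the gene in each list. Of 541 tiles of chromosome 20 as long as the TOP1 window, 34.9% held a peak in asynchronous cells, 31.1% under mimosine and 36.0% in HU cells, and 30.9% in all 3. The peaks were chr20:39656120-39663928 in the asynchronous list, chr20:39657329-39662430 under mimosine and chr20:39655925-39663593 under HU. They were 7809 bp, 5102 bp and 7669 bp wide, wider than 98.0%, 96.8% and 97.2% of their lists.

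Most of the TOP1 peak lay downstream of the start site, inside the gene. It ended 6468 bp, 4970 bp and 6133 bp past the start and covered 6.76%, 5.20% and 6.41% of the gene, and no peak was called in the rest of its 95.7 kb. Upstream of the start, where the promoter lies, it extended 1340 bp in the asynchronous list and 1535 bp in that of HU. In mimosine cells it extended only 131 bp, so its edge was drawn in by 1209 bp on the upstream side and by 1498 bp on the downstream side relative to asynchronous cells. The loss was thus similar on both sides, unlike that at MYC.

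The TOP1 peak had a score of 3100 in all 3 lists, as MYC did. Among mimosine peaks within 10% of its width, it scored above 75% of 324, whose median score was 2106. In asynchronous and HU cells the median of such peaks was itself 3100. A peak just outside the window began 11.6 kb past the gene end in asynchronous, 12 kb in mimosine and 11.6 kb in HU cells. On the other side a peak lay 22.7 kb, 23.3 kb and 22.6 kb upstream of the gene. Beyond that one the next peak centre was 1.98 Mb upstream of the start site in each list, so TOP1 lay near the edge of a long stretch without peaks.

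**Figure D2:**
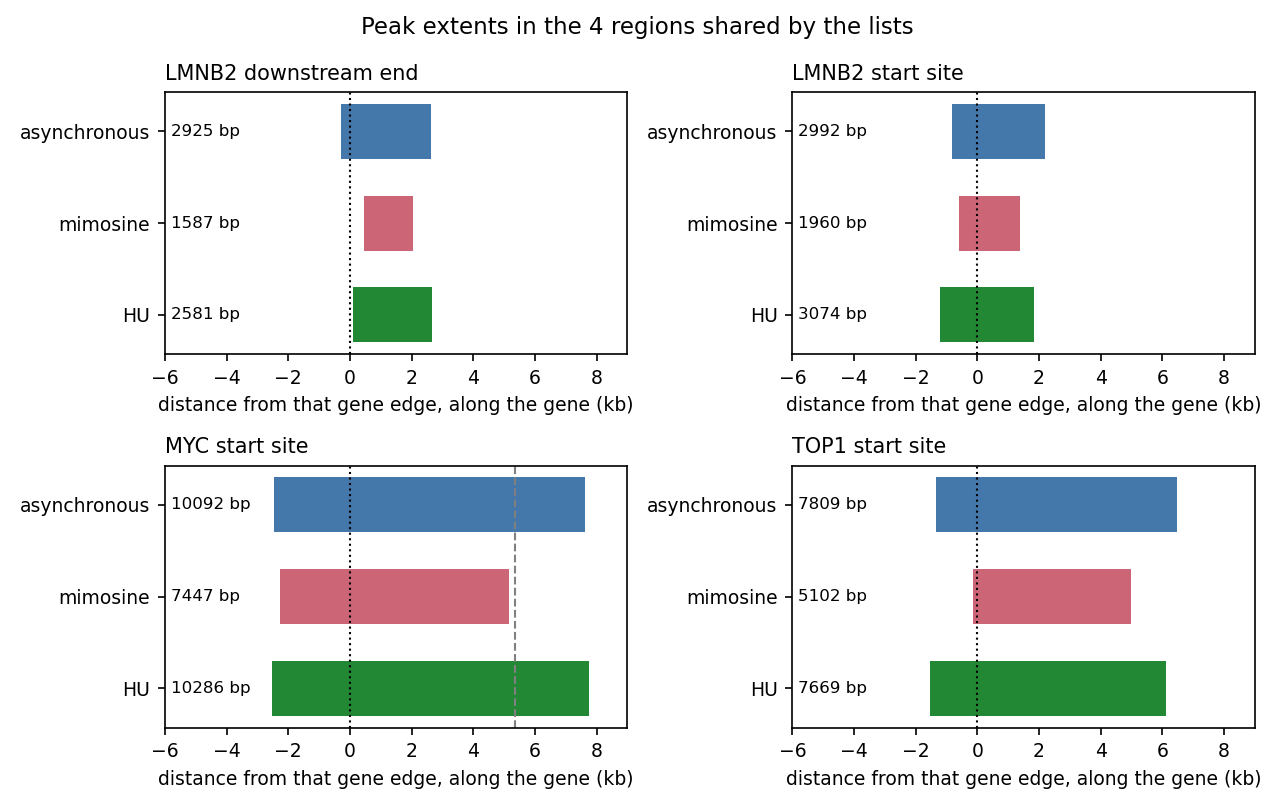
Extents of the peaks in the 4 regions that held 1 peak of each list, by distance in kb from the named gene edge (dotted line) along the gene, with each width printed at the left and the end of MYC as a dashed line. The mimosine bar is the shortest in each panel, and at MYC its shortening is on the right.

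HBB had no BRPF3 peak in its window in any list. This is the usual outcome on chromosome 11, where 88.8% of 6205 tiles as long as the HBB window had no peak in any list. A peak was held by 10.5% of them in asynchronous cells, 8.65% under mimosine and 10.7% in HU cells, and by 8.56% in all 3. The absence at the window alone is therefore near the background of the chromosome.

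The stretch without peaks around HBB was long for these lists. It measured 1.84 Mb in asynchronous, 2.14 Mb in mimosine and 1.29 Mb in HU cells, against median distances between neighbouring peaks of chromosome 11 of 47.6 kb, 46.7 kb and 46.9 kb. Only 13 of 691, 11 of 622 and 15 of 695 such distances on that chromosome were longer. These counts take each distance once, although a given position falls more readily into a long distance than into a short one. The share of the chromosome in such long stretches was not computed, so the counts do not show how unusual the position of HBB is. The nearest peak on the upstream side of HBB, where its origin lies, was 1.01 Mb from the gene in asynchronous and mimosine cells and 457 kb away in HU cells. That HU peak, chr11:5705525-5706547, was 1023 bp wide with a score of 58, above 3.74% of its list. On the other side the nearest peak was 831 kb away in asynchronous, 1.13 Mb in mimosine and 832 kb in HU cells. Read numbers were not analysed here, so the lists show that no peak was called over HBB, not that BRPF3 is absent there.

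The 4 loci differed widely in their surroundings. Within 1 Mb on either side of the start site, LMNB2 had 56 asynchronous, 40 mimosine and 57 HU peaks, its own included. In asynchronous and HU cells that is 28.0 and 28.5 per Mb, against 15.4 for the whole of chromosome 19 in both. MYC had 12, 6 and 11 peaks, its own included. That is 6, 3 and 5.5 per Mb, against 3.13, 2.74 and 3.29 for chromosome 8. Of these peaks, 6, 4 and 7 lay upstream outside its window and 5, 1 and 3 downstream. The surroundings thus held more peaks than the chromosome at large in asynchronous and HU cells. Under mimosine that excess rested on the MYC peak itself. TOP1 had 7, 4 and 7 peaks. HBB had 1 in asynchronous cells, 0 under mimosine and 2 in HU cells. TOP1 was below the density of its chromosome, with 3.50, 2.00 and 3.50 per Mb against 5.32, 4.57 and 5.73. The peak at its start site was nonetheless among the widest of each list.

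**Figure D3:**
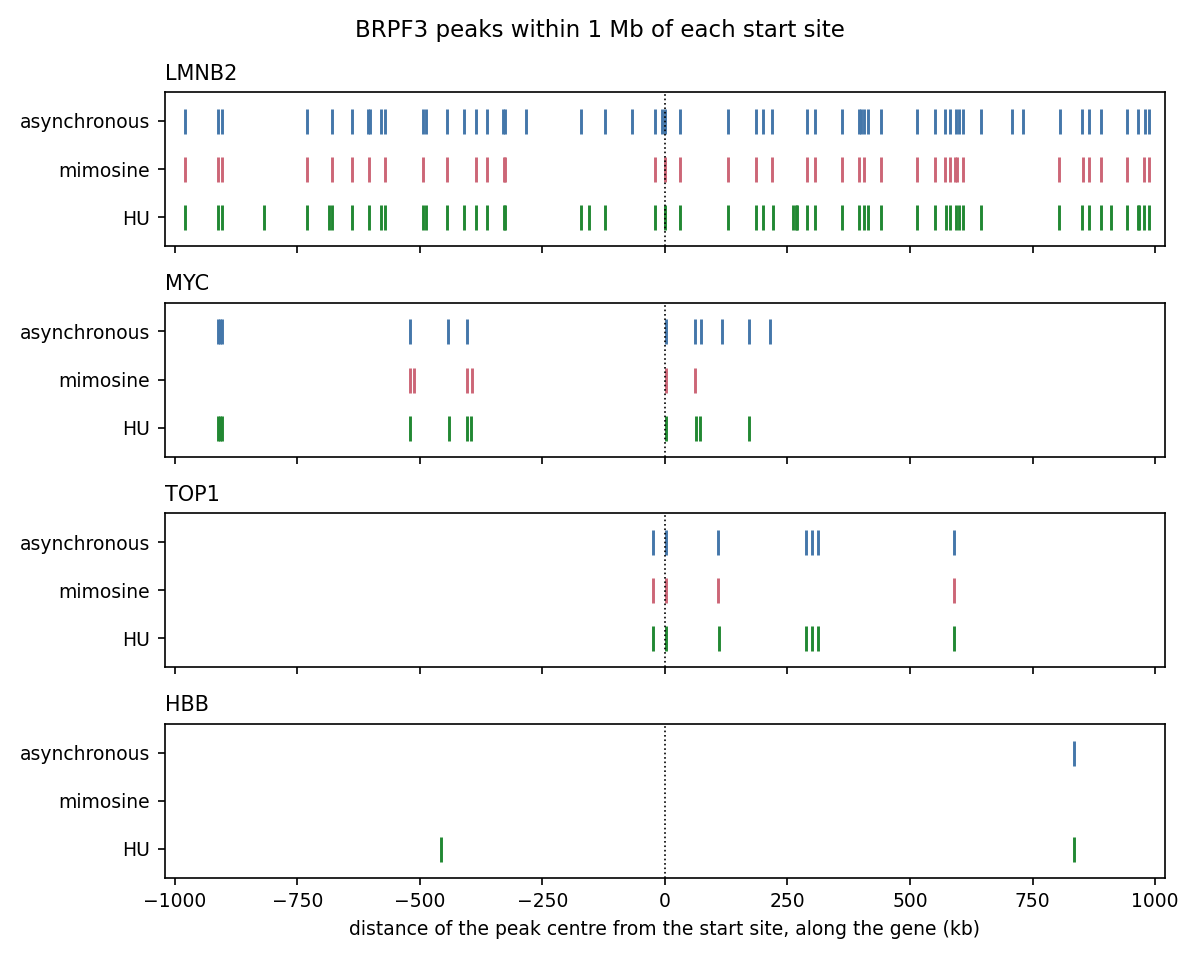
Centres of all BRPF3 peaks within 1 Mb of each start site (ticks, 1 row per list), by distance along the gene in kb. LMNB2 has 40 to 57 peaks in a list, MYC 6 to 12, TOP1 4 to 7 and HBB at most 2.

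Of the 5 regions with peaks at these loci, 4 (2 at LMNB2, 1 each at MYC and TOP1) were held by all 3 lists with 1 peak each. The small peak upstream of LMNB2 was called in asynchronous cells only. Over all 14039 regions, 8653 or 61.6% held exactly 1 peak of each list, so such sharing was common in these data. The mimosine peak was the narrowest at all 4 shared regions. Its width was 0.543 of the asynchronous width at the LMNB2 downstream end, 0.655 at the LMNB2 start site, 0.738 at MYC and 0.653 at TOP1. The median over the 8653 regions with 1 peak per list was 0.694 (interquartile range 0.571 to 0.802). The origin side of LMNB2 thus fell below the interquartile range, with 20.5% of regions lower, and the other sites fell within it. Among regions whose asynchronous peak was within 25% of the width at the site, TOP1 ranked nearly as low. There 20.3% of 4308 regions were lower than the LMNB2 downstream end and 23.3% of 360 were lower than TOP1. For the LMNB2 start site and MYC these shares were 41.5% and 39.8%. Against HU cells the mimosine ratios were 0.615, 0.638, 0.724 and 0.665 in the same order, around the median of 0.630, and all were within the interquartile range of 0.518 to 0.726. Narrowing under mimosine was the rule over these regions and does not by itself set the loci apart.

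HU peaks were about as wide as asynchronous peaks at 3 of the 4 sites. The ratio of HU to asynchronous width was 1.03 at the LMNB2 start site, 1.02 at MYC and 0.982 at TOP1. The median was 1.09 over all regions (interquartile range 1.00 to 1.21). These 3 ratios were thus below the median, with 32.5%, 30.1% and 20.6% of regions lower, and TOP1 was also below the interquartile range. At the LMNB2 downstream end the ratio was 0.882, and 6.63% of regions had a lower ratio. There the HU peak was shorter on the gene side, where its edge lay 376 bp further from LMNB2 than the asynchronous edge, and its far edge reached 32 bp further out. In regions whose asynchronous peak was within 25% of that width, 6.20% of 4308 had a lower ratio.

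**Figure D4:**
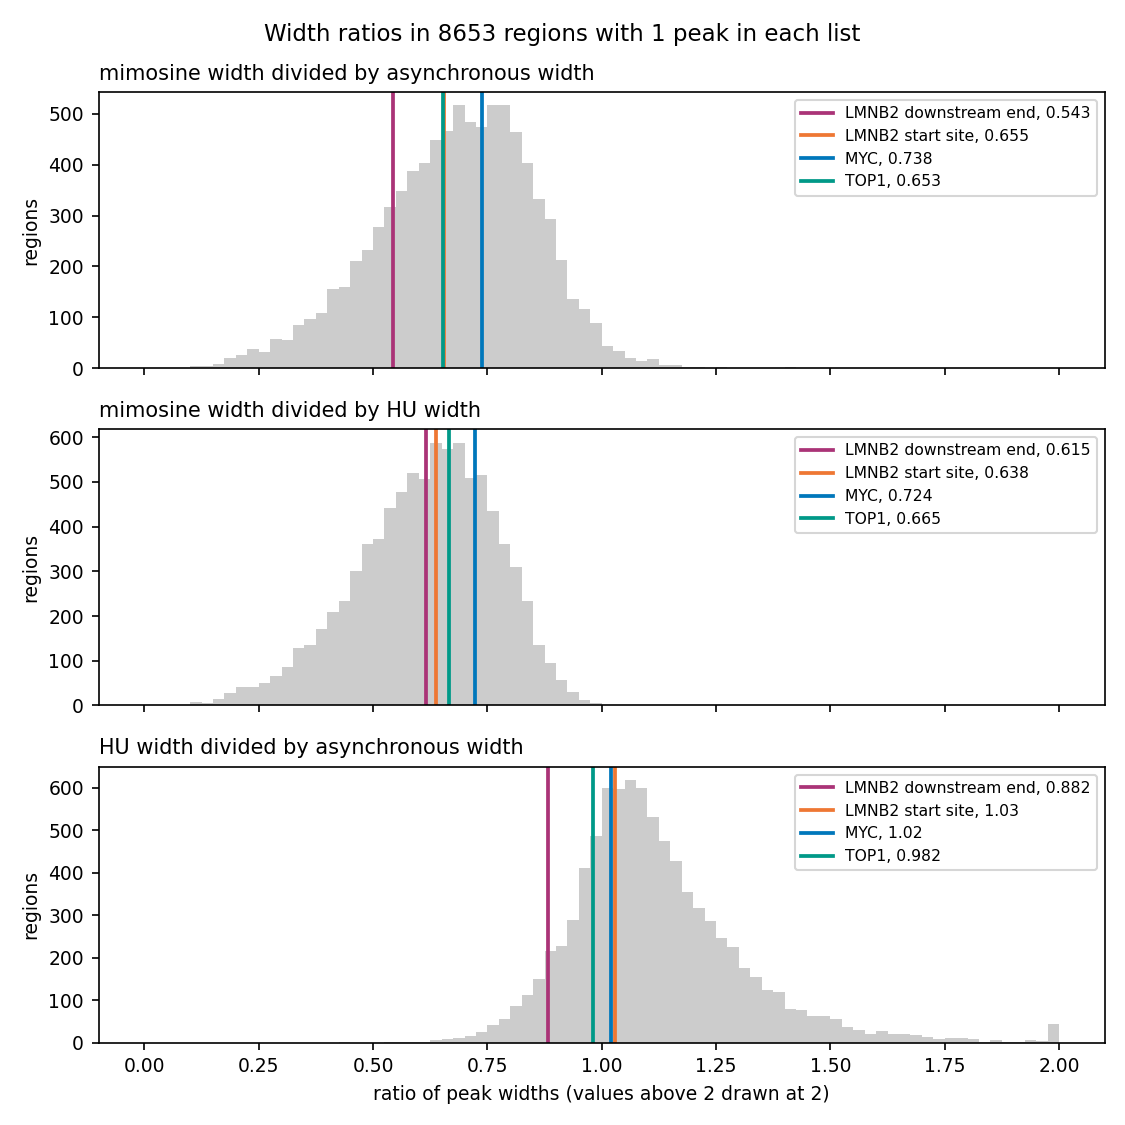
Histograms of the width ratio between lists in 8653 regions with 1 peak per list, with the 4 locus regions as vertical lines. The mimosine ratios of the loci lie in the body of the distribution, and the HU to asynchronous ratio at the LMNB2 downstream end, 0.882, lies towards its lower end.

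The share of each window inside a peak ordered the loci in the same way in the 3 lists. It was highest at MYC, with 39.8% in asynchronous cells, 29.4% under mimosine and 40.5% in HU cells. LMNB2 followed with 13.4%, 7.26% and 11.6%, then TOP1 with 6.75%, 4.41% and 6.63%, and HBB had 0%. As these windows differ in length, the covered length is the plainer measure. It was 10.1 kb, 7.45 kb and 10.3 kb at MYC, 7.81 kb, 5.10 kb and 7.67 kb at TOP1, and 6.55 kb, 3.55 kb and 5.66 kb at LMNB2 in asynchronous, mimosine and HU cells. By length TOP1 thus came before LMNB2.

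**Figure D5:**
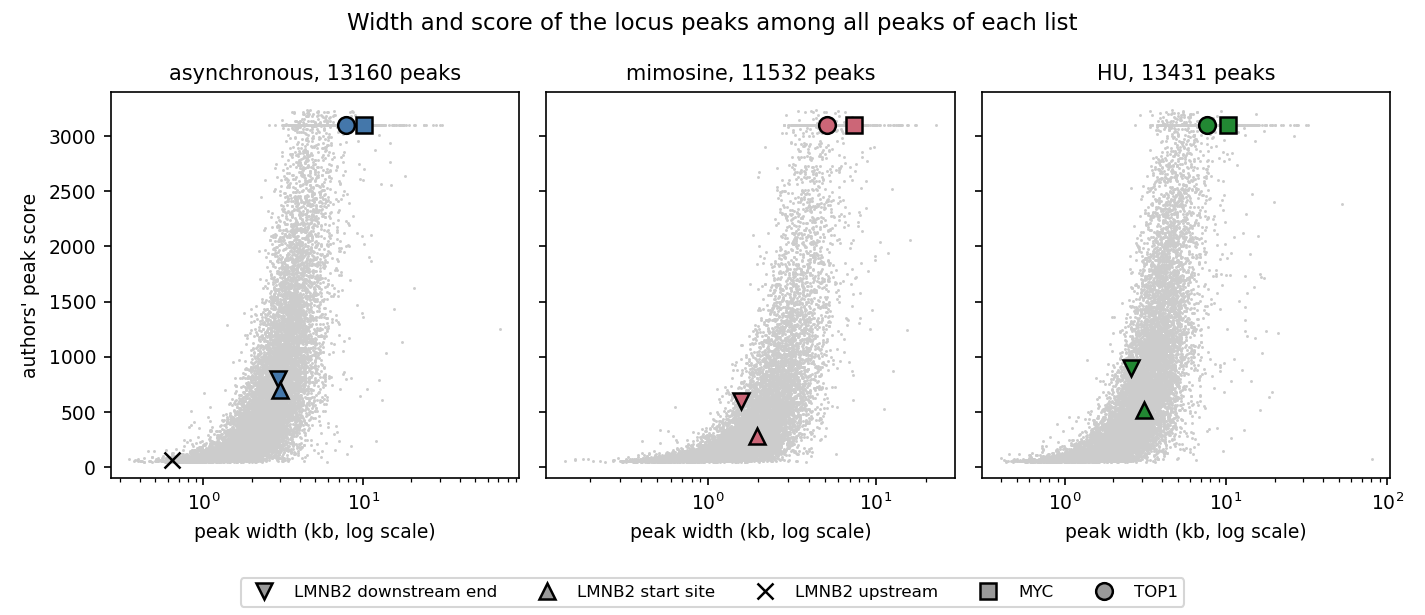
Width in kb (log scale) and the authors' score of the locus peaks (large symbols) among all peaks of each list (grey). MYC and TOP1 lie on the line at 3100, and the LMNB2 downstream peak lies above the LMNB2 start-site peak in each list.

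The edges beside the mapped origins were set side by side for the 3 genes with peaks. The start sites of MYC and TOP1 lay inside a peak in all 3 lists, at least 2271 bp from the upstream peak edge for MYC and at least 131 bp for TOP1. The downstream end of LMNB2 lay inside the asynchronous peak and 93 bp and 459 bp outside the HU and mimosine peaks. The MYC and TOP1 peaks cover gene starts, and the LMNB2 origin lies between that gene and TIMM13, so binding to origins and to promoters cannot be told apart at these loci. Other mapped human origins were not analysed here.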

How the data were processed

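BRPF3 ChIP-seq peak lists from asynchronous, mimosine and HU RKO cells were used, with 1 library per condition, and the IgG library served only as the authors' control. The tools listed, without order or settings, are MACS 1.4.0, Bowtie 0.12.8, bedtools and SAMtools, per the submitters' processing notes. The authors deposited for each peak its position and a score, read from the form of the lists as the negative log10 of the p-value multiplied by 10. The notes name hg18 and hg19. Last peaks pass the ends of chromosomes 17 and 22 in hg18 and of 19 and 22 in GRCh38, and none of these 3 ends in hg19, so hg19 was used. Read depth is unknown.

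Gene intervals were those of the selection rule. Overlaps, distances, merged regions and adjacent same-length tiles (from the first to the last peak of a chromosome, assembly gaps included) were computed with Python 3.11.15, pandas 2.3.3 and NumPy 2.4.6, and checked on simulated data. All 4 genes were named, with their nearest neighbours in the RefSeq table, used for names only, and GADD45B, chosen as the next protein-coding gene. The strands of LMNB2 and TOP1 came from the promoter table and those of MYC and HBB from general knowledge. The genes and lists were chosen with earlier results of these data known. Alternatives varied the flank, score minimum, overlap rule, merging and tile position. No test between conditions was possible.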

Additional observations from a re-analysis of the deposited data

How the results depend on the processing

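The number of loci with a peak stayed at 3 of 4 in each list under every alternative run. Start sites inside a peak stayed at 3, except that LMNB2 was lost and 2 remained in HU cells with equal numbers of top-scoring peaks. HBB had no peak with flanks of up to 50 kb. The alternatives below changed values, in the order asynchronous, mimosine and HU where 3 are given, and not every change is listed. Peaks at LMNB2 fell to 1 in mimosine and to 1 in HU cells with no flank. They fell to 1 in mimosine cells at a score of 500 or more, and to 1 in HU cells with equal numbers of 5766 top-scoring peaks. In asynchronous cells they fell from 3 to 2 with no flank, a flank of 5 kb, either score minimum or equal numbers. With flanks of 20 kb and of 50 kb they rose to 4, 3 and 3. TOP1 peaks rose to 2 in each list with a flank of 20 kb and to 3 in each with 50 kb. Summed peak length at LMNB2 gave ratios of 0.542 for mimosine to asynchronous, 0.627 for mimosine to HU and 0.864 for HU to asynchronous. With no flank, coverage was 8.56%, 4.79% and 6.41% at LMNB2, 100%, 96.4% and 100% at MYC, and 5.20% and 6.41% at TOP1 in mimosine and HU cells. At a score of 100 or more, LMNB2 coverage in asynchronous cells was 12.1%. Tiles with a peak of that score made up 42.5%, 35% and 43.7% for LMNB2, 5.78% and 7.31% for MYC in mimosine and HU cells, and 9.56%, 7.48% and 9.78% for HBB. With 50% of the peak inside the tile they were 7.03% and 7.29% for MYC and 9.46% and 9.51% for HBB, in asynchronous and HU cells. These alternatives use fewer peaks or another window by construction. No paired analysis was possible because each condition had 1 library. Depth was not analysed here, so a missing peak does not show missing binding.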
